A study of Mus musculus with 17 samples.

Results

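Cited2 and Cited4 encode small transcriptional co-activators of the CITED family, proteins that bind no DNA themselves and join transcription factors to the acetyltransferases CBP and p300. They were followed across mouse bone marrow cells that had been given extra microRNAs. Every probe whose platform annotation names either gene was taken, which gave 4 of 45281 probes, 3 for Cited2 and 1 for Cited4, and 2 of 19057 genes with a probe. The pair was selected on measured values: Cited4 was chosen because its signal was higher with the microRNA cluster than with the empty vector in dataset A, and Cited2 as its relative. The differences that rest on the cluster arrays of dataset A are therefore given below as descriptions, with no test, for both genes. Earlier results of dataset B were also known when the pair and the tests were chosen, so the p-values of dataset B are not independent of that choice.

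CITED proteins hold a conserved acidic C-terminal domain that binds the CH1 domain of CBP and p300. Through it CITED2 competes with the hypoxia-inducible factor HIF-1alpha for CBP and p300 and thereby limits the transcription of hypoxia genes, while both proteins can also act as co-activators of TFAP2 factors. In mouse blood formation Cited2 is needed for fetal liver haematopoiesis and for the upkeep of adult stem cells. CITED1, the other mammalian member of the family, was first described in melanocytes.

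The vectors carried 3 microRNAs of 1 cluster on chromosome 17 (miR-99b, let-7e and miR-125a), miR-125a alone, or miR-155 from chromosome 16. The mature microRNAs are shown because they are what distinguishes the groups. They are written 5′ to 3′ as RefSeq gives them for mouse, all lie on the + strand, and capitals mark the seed (bases 2 to 8), by which a microRNA mainly pairs with its targets.
mmu-miR-99b-5p: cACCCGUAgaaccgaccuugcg
mmu-let-7e-5p: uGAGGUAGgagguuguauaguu
mmu-miR-125a-5p: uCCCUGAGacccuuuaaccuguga
mmu-miR-155-5p: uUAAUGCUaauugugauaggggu
In GRCm38.p6 they lie at chr17:17830194-17830215, chr17:17830366-17830387, chr17:17830817-17830840 and chr16:84714143-84714165, in the order shown. The 4 seeds all differ. The array had 0 probes annotated to Mir99b, Mirlet7e, Mir125a or Mir155, and the microRNA levels themselves were not measured. Sites for these seeds in the Cited transcripts were not searched.

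Messenger RNA was measured on 17 Illumina bead arrays, which report a fluorescence intensity for each probe. Marrow of C57Bl/6 mice was taken 4 days after injection of 5-fluorouracil at 150 mg/kg, a drug that removes dividing cells, and was cultured for 7 days with the cytokines Flt3 ligand, interleukin-11 and stem cell factor in all groups. All groups, the empty vector included, were infected with a retroviral MXW vector and sorted for EGFP and for exclusion of propidium iodide 5 days after the first transduction, and each array started from 100 ng of RNA. Dataset A held 3 arrays of cells with the vector for the cluster 99b/let-7e/125a, 2 with the miR-155 vector and 3 with the empty vector, and dataset B held 3 with the cluster, 3 with miR-125a and 3 with the empty vector. The series' design text calls the samples independent biological triplicates, and 2 miR-155 arrays were analysed here. The sorted cells were mixed cultures, so the arrays averaged over several cell types. The ages of the mice, the promoter that drives the microRNAs and the number of animals behind an array are not given in the sources used here.

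An array of dataset A detected 34.8% to 38.7% of its probes, and one of dataset B 34.2% to 38.9% (detection p under 0.05 against the negative controls of the array). The precision is limited by the number of arrays. The leukocyte and progenitor markers Ptprc, Kit, Cd34, Mpo, Spi1, Runx1 and Myb were detected on all 17 arrays, and Flt3 on 1. Markers of other cell types were detected as well: 6 of 10 of mast cells and basophils (Cpa3, Mcpt8, Prss34, Fcer1a, Ms4a2 and Gata2) on all 17 arrays, as were 3 of 6 of megakaryocytes and, of 6 lymphoid and 7 stromal and endothelial markers, Cd79b and Pecam1. Of 6 erythroid markers 0 were on all arrays, with Klf1 on 7 and Epor on 6. In these lists only Tpsab1 (mast cell), Slc4a1 (erythroid), Cd3g (T cell) and Col3a1 (stroma) were detected on 0 arrays. The datasets were normalized separately, so that levels are compared only within a dataset, and levels of different probes are not set against each other.

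Cited4 lies in GRCm38.p6 at chr4:120666563-120667820 (gene ID 56222), a span of 1258 bp, and was measured by probe ILMN_2998934. Its level stood apart on the cluster arrays of dataset A, and in dataset B it was above the empty vector under both the cluster and miR-125a, while the miR-155 arrays lay within the range of the empty vector. In dataset A the normalized log2 intensities (background-corrected, then brought to the same distribution on every array of the dataset) were 7.64 on cluster array 1, 7.26 on cluster array 3 and 7.35 on the unnumbered cluster array, 5.35 and 5.40 on the miR-155 arrays, and 5.52, 4.93 and 5.05 on the empty-vector arrays. The 3 cluster arrays thus lay well above the other 5, which overlapped between groups. The same separation stood in the deposited intensities before any scaling, at 300, 212 and 235 with the cluster, 116 and 97.1 with miR-155, and 131, 106 and 96.7 with the empty vector.

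**Figure D1:**
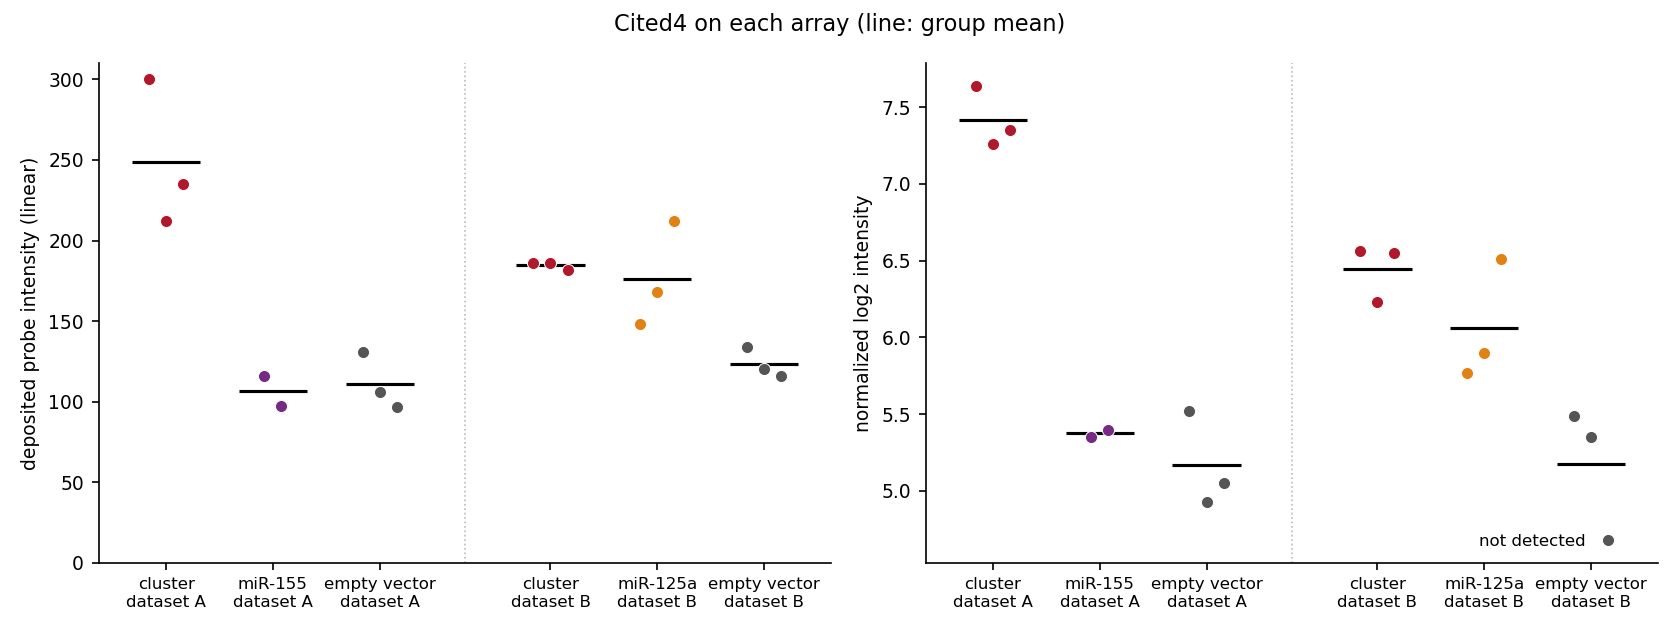
Cited4 (probe ILMN_2998934) on each of 17 arrays, as deposited linear intensity on the left and as normalized log2 intensity on the right. Points are arrays and lines are group means. The cluster arrays of dataset A sit between 7.26 and 7.64 on the log2 scale, above the miR-155 arrays at 5.35 and 5.40 and the empty-vector arrays between 4.93 and 5.52. In dataset B all cluster and miR-125a arrays sit above the empty-vector arrays, of which 1 was not detected.

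The mean of the cluster arrays of dataset A was 7.42 ± 0.20, that of the empty vector 5.17 ± 0.31 (SD, n = 3 each), a difference of 2.25 ± 0.18 (log2, SE), or 4.76-fold. By the size of this difference Cited4 ranked 1 of 10266 genes tested, which is the value that chose it. Over all genes of this comparison 67 of 10266, or 0.653%, passed limma's test at an adjusted p under 0.05 (Benjamini-Hochberg over all genes; 32 rose and 35 fell), and 5.79% of detected probes had all cluster arrays above all empty-vector arrays. Without background correction the difference was 2.27-fold and with the deposited series matrix values 2.14-fold, so its size, but not its direction, depended on how the array background was treated. In a bulk measurement, more or fewer cells of a type and more or less RNA per cell cannot be told apart.

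Dataset B holds other arrays of the same cluster vector, whose results were also known when the genes and tests were chosen. There Cited4 had normalized log2 intensities of 6.56, 6.23 and 6.55 on cluster arrays 4, 5 and 6, 5.77, 5.90 and 6.51 on miR-125a arrays 1, 2 and 3, and 5.49, 5.35 and 4.68 on empty-vector arrays 4, 5 and 6. Neither vector's arrays overlapped with those of the empty vector, and miR-125a array 3 lay among the cluster arrays. The lowest empty-vector value was the only one of the 17 that was not detected (its detection p-value was 0.0588). The deposited intensities were 186, 186 and 182 with the cluster, 148, 168 and 212 with miR-125a, and 134, 120 and 116 with the empty vector.

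With the cluster Cited4 averaged 6.45 ± 0.19 in dataset B, with the empty vector 5.17 ± 0.43 (SD, n = 3 each). The difference was 1.27 ± 0.24 (log2, SE; 2.42-fold, 95% interval 1.68 to 3.49), and did not pass limma's test over all genes (unadjusted p = 0.000281, adjusted p = 0.143). It ranked 2 of 9395 genes by size and 16 by p, in a comparison where 1 gene, or 0.0106%, passed and 916 had an unadjusted p under 0.05. The gene that passed, Arid3a, named here after its value was seen, encodes a DNA-binding factor and fell by 1.26 ± 0.12 (log2, SE, adjusted p = 0.00629). Non-overlap upwards, as for Cited4, was seen for 8.66% of detected probes.

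The Cited4 difference in dataset B passed the test under 2 alternatives, scaling each array to a common median in place of equal distributions (adjusted p = 1.62e-05) and a trended, robust prior for limma's variances (adjusted p = 0.0207), and not under the other 14, with adjusted p from 1.62e-05 to 0.395 over all 16. Without background correction it was 1.40-fold (adjusted p = 0.0946), and with series matrix values 1.37-fold (adjusted p = 0.109). With the replicate number as a block it stayed at 1.27 (adjusted p = 0.251).

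For miR-125a alone, a member of the cluster, Cited4 averaged 6.06 ± 0.39 against 5.17 ± 0.43 with the empty vector (SD, n = 3 each). The difference of 0.89 ± 0.24 (log2, SE; 1.85-fold, 95% interval 1.28 to 2.67) ranked 11 of 9395 by size but did not pass the test (limma, unadjusted p = 0.00375, adjusted p = 0.247). With miR-125a 0 genes, or 0.00%, passed, the lowest adjusted p being 0.110, and 994 had an unadjusted p under 0.05. Of detected probes 8.63% had all miR-125a arrays above all empty-vector arrays. Cited4 passed only under median scaling (adjusted p = 0.000806), and without background correction its difference was 1.24-fold (adjusted p = 0.257). This comparison and that of the cluster in dataset B share their empty-vector arrays.

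Set directly against miR-125a in dataset B, the cluster gave a Cited4 level higher by 0.39 ± 0.24 (log2, SE; 1.31-fold, 95% interval 0.908 to 1.89), with overlapping arrays and no call (limma adjusted p = 1.00). The interval holds both no difference and a step of the size measured between miR-125a and the empty vector. Of all genes 0, or 0.00%, passed in this direct comparison. The lowest adjusted p was 0.743, and 428 genes had an unadjusted p under 0.05.

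With miR-155 Cited4 averaged 5.37 ± 0.03 (SD, n = 2), against 5.17 ± 0.31 with the empty vector (SD, n = 3). The difference of 0.21 ± 0.21 (log2, SE; 1.15-fold, 95% interval 0.853 to 1.56) did not pass (limma adjusted p = 0.858), while 108 genes, or 1.05%, did so in this comparison. These empty-vector arrays are also those of the cluster comparison in dataset A, on which Cited4 was chosen. The cluster arrays also enter the estimate of the spread, so the p-value with miR-155 is not independent of that choice. The cluster arrays of dataset A lay above the miR-155 arrays by 2.04 ± 0.21 (log2, SE; 4.12-fold), again a description, since the cluster arrays are those on which Cited4 was chosen; 12.4% of detected probes lay wholly above in the same way.

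**Figure D2:**
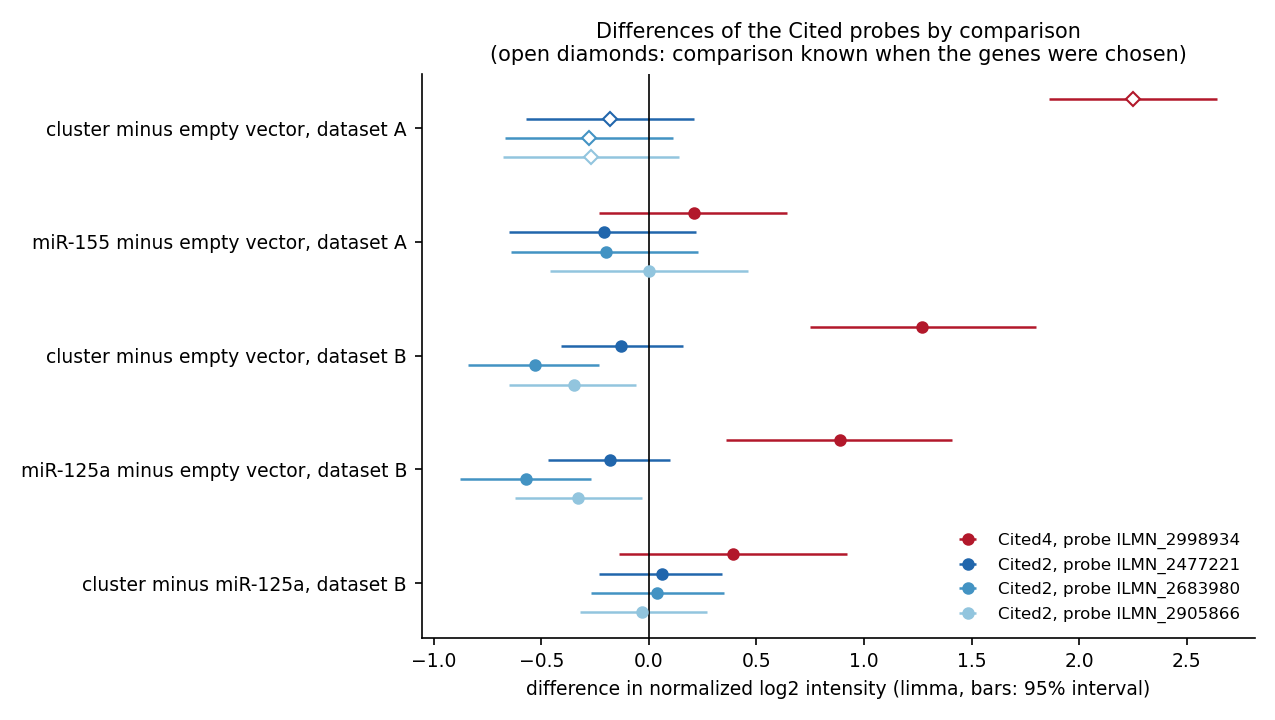
Differences in normalized log2 intensity of the 4 Cited probes in 5 comparisons, from limma, with 95% intervals as bars. Open diamonds mark the comparison on which Cited4 was chosen, for which no test is given. Results of dataset B were also known at that choice, though its points are filled. Cited4 is the only one of the 4 probes right of 0 by more than its interval, with the cluster in datasets A and B and with miR-125a. The Cited2 probes lie at or left of 0 in each comparison with the empty vector. Of these, ILMN_2683980 and ILMN_2905866 lie left of 0 by more than their intervals with the cluster and with miR-125a in dataset B.

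**Figure D3:**
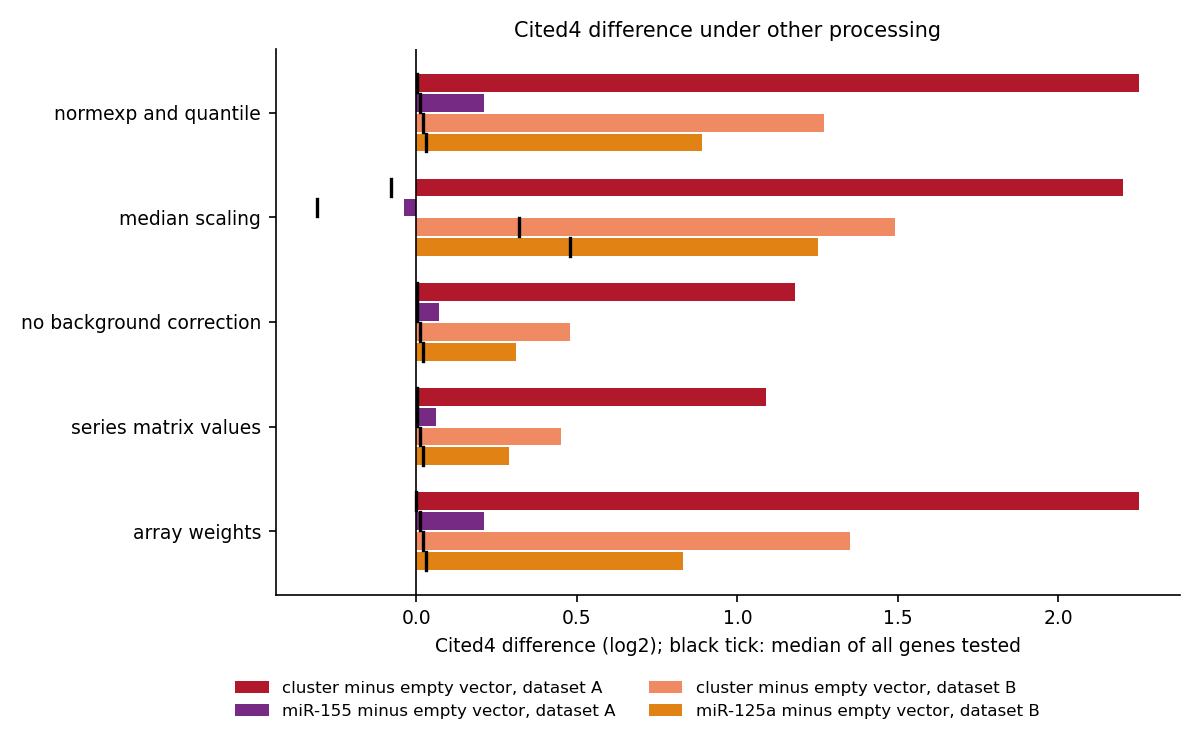
Cited4 differences (log2) under the main processing and 4 alternatives, as bars, for 4 comparisons with the empty vector. Black ticks give the median of all genes tested under the same setting. Leaving out background correction shortens the bar of the cluster in dataset A to 1.18, and median scaling moves the median of all genes to 0.32 with the cluster and 0.48 with miR-125a in dataset B.

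Cited2 lies at chr10:17723228-17725674 (GRCm38.p6, gene ID 17684), a span of 2447 bp. Its 3 probes were detected on all 17 arrays, and the brightest, ILMN_2477221, represented the gene. On average no Cited2 probe lay above the empty vector in any comparison with it, and the dimmer pair lay wholly below it in dataset B, except under median scaling, where the brightest probe stood at 0.21 with the cluster and 0.34 with miR-125a (log2) while the medians of all genes stood at 0.32 and 0.48. None of the tested differences passed over all genes or probes.

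On the brightest probe the normalized log2 intensities of dataset A were 10.98, 10.86 and 11.13 with the cluster, 10.86 and 11.05 with miR-155, and 11.15, 11.50 and 10.86 with the empty vector. In dataset B they were 11.00, 11.05 and 10.98 with the cluster, 11.10, 10.96 and 10.80 with miR-125a, and 11.30, 11.17 and 10.94 with the empty vector. The groups overlapped in both datasets, and the empty-vector arrays spread most widely in dataset A. The differences were -0.13 ± 0.13 with the cluster in dataset B (log2, SE; 95% interval -0.41 to 0.16; limma adjusted p = 0.815), -0.18 ± 0.13 with miR-125a (-0.47 to 0.10; adjusted p = 0.650) and -0.21 ± 0.20 with miR-155 (-0.65 to 0.22; adjusted p = 0.848). With the cluster in dataset A the value was -0.18 ± 0.18 (log2, SE), given with no test. The direct difference of cluster and miR-125a was 0.06 ± 0.13 (95% interval -0.23 to 0.34; limma adjusted p = 1.00).

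Probe ILMN_2683980 gave a clearer separation in dataset B. Its normalized log2 intensities were 8.04, 8.23 and 7.77 with the cluster, 7.84, 8.01 and 8.06 with miR-125a, and 8.52, 8.49 and 8.62 with the empty vector, so that every array with the cluster or miR-125a lay below every empty-vector array. The cluster difference was -0.53 ± 0.14 (log2, SE; 1.45-fold lower; limma, adjusted p = 0.297 over all probes), where 6.25% of detected probes lay wholly below. The miR-125a difference was -0.57 ± 0.14 (1.49-fold lower; adjusted p = 0.298), where 5.94% did. Before scaling between arrays the groups overlapped, with deposited intensities of 306 to 458 with the cluster, 324 to 460 with miR-125a and 304 to 499 with the empty vector.

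Probe ILMN_2905866 had 7.55, 7.49 and 7.39 with the cluster, 7.37, 7.49 and 7.65 with miR-125a, and 7.82, 8.01 and 7.66 with the empty vector in dataset B. The vectors' arrays again lay below those of the empty vector, narrowly so for miR-125a, whose highest array (7.65) came close to the lowest empty-vector array (7.66). Of detected probes 6.25% lay wholly below with the cluster and 5.94% with miR-125a. Before scaling between arrays the groups overlapped, with deposited intensities of 255 to 313 with the cluster, 259 to 366 with miR-125a and 243 to 298 with the empty vector. The differences were -0.35 ± 0.13 with the cluster (log2, SE; limma, adjusted p = 0.483 over all probes) and -0.33 ± 0.13 with miR-125a (adjusted p = 0.477). Under median scaling the cluster difference of this probe was 0.02 and its miR-125a difference 0.24, where the median of all probes stood at 0.28 and 0.42, so its sign in dataset B depended on the scaling, while it stayed below the median of all probes.

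**Figure D4:**
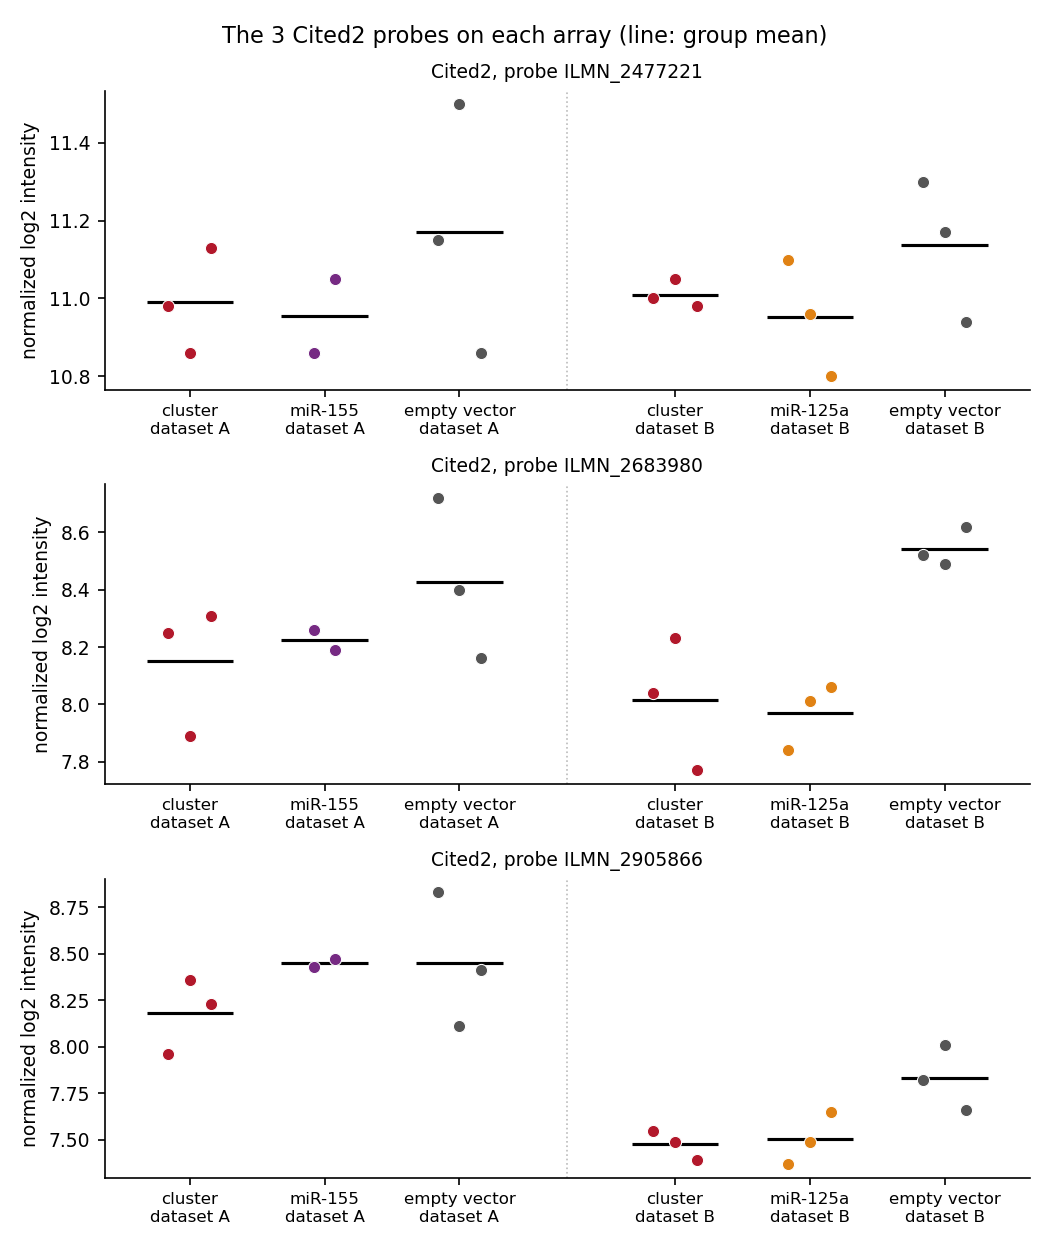
The 3 Cited2 probes on each of 17 arrays, as normalized log2 intensity, each panel with its own axis. Points are arrays and lines are group means. On the brightest probe (top) all groups overlap, and on the other probes the cluster and miR-125a arrays of dataset B lie below the empty-vector arrays of that dataset.

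In dataset A the dimmer probes overlapped between each vector and the empty vector. ILMN_2683980 had 8.25, 7.89 and 8.31 with the cluster, 8.26 and 8.19 with miR-155, and 8.72, 8.40 and 8.16 with the empty vector. ILMN_2905866 had 7.96, 8.36 and 8.23 with the cluster, 8.43 and 8.47 with miR-155, and 8.83, 8.11 and 8.41 with the empty vector. Their miR-155 differences were -0.20 ± 0.21 and -0.00073 ± 0.22 (log2, SE; limma, adjusted p = 0.880 and 0.999 over all probes). The cluster differences of dataset A, given with no test, were -0.28 ± 0.19 and -0.27 ± 0.19 (log2, SE). On ILMN_2905866 the cluster arrays lay wholly below the miR-155 arrays, by 0.27 on average, as did 11.5% of detected probes.

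The 3 Cited2 probes varied only partly together. Across the 9 arrays of dataset B, which share groups and scaling, the dimmer pair correlated at r = 0.80, and each of them with the brightest at 0.39 and 0.43. Across the 8 arrays of dataset A the values were 0.39 for the dimmer pair, and 0.57 and -0.17 with the brightest. With Cited4 the brightest Cited2 probe correlated at -0.27 in dataset A and -0.37 in dataset B, and ILMN_2683980 at -0.35 and -0.77. These coefficients describe arrays that fall into groups and carry no test.

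Cited1, on the X chromosome (gene ID 12705), was detected on 1 of 17 arrays, a cluster array of dataset A, and was not tested. Its group means on the normalized log2 scale were 4.37 to 4.44 in dataset A, and 4.35 to 4.56 in dataset B.

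The partners and targets of CITED proteins were followed as 7 gene lists with 74 genes, of which 68 had a probe and 50 were tested in dataset A and 47 in dataset B. In each comparison with the empty vector 0 rose and 0 fell (limma adjusted p under 0.05), while an unadjusted p under 0.05 was reached by 6 genes with the cluster in dataset A (12.0% of those tested, against 7.81% of all genes), 6 with the cluster in dataset B (12.8%, against 9.75%), 1 with miR-125a (2.13%, against 10.6%) and 4 of 50 with miR-155 (against 8.98%). The median differences of the listed genes (log2) were 0.01 with the cluster in dataset A, 0.11 with the cluster in dataset B, 0.04 with miR-125a and 0.01 with miR-155, against medians of all genes of 0.0015, 0.02, 0.03 and 0.01. Of the co-activators that CITED proteins bind, Ep300 differed by 0.16 ± 0.17 and Crebbp by 0.05 ± 0.17 with the cluster in dataset B (log2, SE). With miR-125a Ep300 differed by -0.004 ± 0.17 and Crebbp by -0.16 ± 0.17. In dataset A Ep300 alone was tested, at 0.03 ± 0.22 with the cluster and -0.33 ± 0.24 with miR-155. The 5 TFAP2 factor genes had probes but 0 passed the detection filter, so these partners could not be followed.

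Among HIF factors, their hydroxylases and Vhl, 7 of 10 genes were tested in dataset B. The largest difference with the cluster was in the prolyl hydroxylase gene Egln1 at 0.43 ± 0.26 (log2, SE; limma adjusted p = 0.649), and with miR-125a it was 0.45 ± 0.26 (adjusted p = 0.583). In dataset A, where 8 of the 10 were tested, Egln1 differed by -0.06 ± 0.18 with the cluster and by 0.04 ± 0.20 with miR-155. There the factor gene Hif3a had the largest difference, at -0.61 ± 0.22 with the cluster and -0.51 ± 0.25 with miR-155, neither of them called. Next with the cluster came Vhl, whose product marks hydroxylated HIF for degradation, at 0.46 ± 0.20 (adjusted p = 0.539), with 0.13 ± 0.22 under miR-155 and, in dataset B, 0.08 ± 0.16 with the cluster and 0.21 ± 0.16 with miR-125a. Hypoxia-induced HIF targets, which CITED2 is known to restrain, had a median of 0.15 with the cluster and 0.09 with miR-125a over 24 tested genes of dataset B, and of -0.02 with the cluster and 0.01 with miR-155 over 26 tested genes of dataset A. Vegfa, the vascular growth factor gene, was highest in the list in dataset B, at 0.89 ± 0.27 with the cluster (adjusted p = 0.348) and 0.56 ± 0.27 with miR-125a (adjusted p = 0.506). In dataset A Vegfa differed by 0.08 ± 0.19 with the cluster and by -0.48 ± 0.21 with miR-155 (adjusted p = 0.987 and 0.494). Ndrg1, a hypoxia-responsive gene, differed by 0.68 ± 0.29 with the cluster in dataset B and by 0.39 ± 0.32 in dataset A (adjusted p = 0.492 and 0.874), by 0.11 ± 0.29 with miR-125a and by 0.22 ± 0.35 with miR-155.

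Of the genes reported downstream of Cited2 in mouse blood stem cells, 5 of 8 were tested in dataset B and 6 in dataset A. Cdkn1c, which encodes the cell cycle inhibitor p57, was highest in dataset B, at 0.54 ± 0.16 with the cluster and 0.42 ± 0.16 with miR-125a (log2, SE; limma adjusted p = 0.317 and 0.396), and lay at -0.22 ± 0.19 with the cluster and -0.53 ± 0.21 with miR-155 in dataset A (adjusted p = 0.879 and 0.398). Gfi1, a repressor that restrains stem cell division, differed by -0.36 ± 0.17 with the cluster and by -0.54 ± 0.19 with miR-155 in dataset A (adjusted p = 0.650 and 0.317), and by 0.08 ± 0.19 and 0.31 ± 0.19 with the cluster and with miR-125a in dataset B. Of the C/EBP factors, regulators of myeloid differentiation, Cebpe differed by -0.53 ± 0.17 with the cluster in dataset A (adjusted p = 0.281) and by -0.17 ± 0.19 with miR-155, and in dataset B by -0.06 ± 0.19 with the cluster and 0.24 ± 0.19 with miR-125a. Cebpb differed by -0.63 ± 0.18 with miR-155 (adjusted p = 0.173) and by -0.34 ± 0.16 with the cluster in dataset A, and in dataset B by -0.23 ± 0.15 with the cluster and -0.08 ± 0.15 with miR-125a. In dataset B the largest differences of this list were those of Cebpa, 0.35 ± 0.21 with the cluster and 0.39 ± 0.21 with miR-125a (adjusted p = 0.637 and 0.543), beside 0.16 ± 0.17 with the cluster and -0.25 ± 0.20 with miR-155 in dataset A. Of other factors that bind CITED2, 4 of 11 were tested, and Esr1 stood highest, at 0.59 ± 0.23 with the cluster in dataset A (adjusted p = 0.455), with 0.12 ± 0.25 under miR-155 and, in dataset B, 0.25 ± 0.16 with the cluster and 0.15 ± 0.16 with miR-125a.

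Markers of other cell types moved in dataset A beside the Cited4 values. Of 12 neutrophil maturation markers, 4 fell with the cluster. They were the granule protein genes Ltf, Camp (log2 -1.90) and Ngp (-1.42), and Itgb2l (-1.46), an integrin subunit gene. The list median was -0.61, where 0.653% of all genes were called. The list did not move as a whole. Cxcr2 was highest, at 0.70 ± 0.17 with the cluster (log2, SE; limma adjusted p = 0.104). Mmp9 (0.04) and S100a8 (0.03) lay just above the empty vector, and the other members below it. Cxcr2 differed by -0.10 ± 0.20 with miR-155, and by 0.42 ± 0.27 with the cluster in dataset B. With miR-155, 5 of the 12 fell and the median was -0.69, where 1.05% of all genes were called. The summed level of the list was 28757 to 33835 with the cluster, 32353 to 34232 with miR-155 and 39129 to 46371 with the empty vector, in normalized intensity units, with all 12 detected on at least 1 array. Of 4 measured eosinophil markers, the granule protein genes Prg3 and Prg2 fell with the cluster (-1.09 and -1.30), with sums of 274 to 418 with the cluster, 460 to 718 with miR-155 and 585 to 913 with the empty vector. With miR-155 the macrophage marker Adgre1 and the mast cell and basophil marker Fcer1a were called lower as well, each the only call in its list. All 7 tested monocyte and macrophage markers lay below the empty vector with miR-155, from -0.91 to -0.17 (log2, median -0.66). The 8 tested mast cell and basophil markers ran from -1.04 to 0.24 (median -0.32). Of 53 tested markers of all lists, 28.3% reached an unadjusted p under 0.05 (limma) with the cluster, against 7.81% of all genes. With miR-155 39.6% did so, against 8.98% of all genes.

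In dataset B 0 of 46 tested markers were called by limma with either vector, and an unadjusted p under 0.05 was reached by 5 with the cluster (10.9%, against 9.75% of all genes) and 6 with miR-125a (13.0%, against 10.6%). The neutrophil maturation sum spread as widely within groups as between them, at 30356 to 73342 with the cluster, 33249 to 82044 with miR-125a and 36704 to 62170 with the empty vector, and its median difference over 11 tested markers was 0.10 with the cluster and 0.32 with miR-125a. With miR-125a the mast cell and basophil markers had a median difference of 0.56 over 8 tested (9 of 10 detected on any array), with sums of 3470 to 7808 against 2813 to 3017 with the empty vector. The 3 tested eosinophil markers ran from -0.96 (Prg2) to -0.08 with the cluster and from 0.14 to 0.42 with miR-125a (log2). The eosinophil sums were 155 to 324 with the cluster, 306 to 528 with miR-125a and 296 to 420 with the empty vector. The part of these cell types in the Cited4 and Cited2 values was not tested.

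The genes whose levels ran most like Cited4 were sought among 8958 other genes tested in both datasets, by the lower of the Pearson correlations over the 8 arrays of dataset A and the 9 of dataset B. These arrays share groups, and those of dataset A include the arrays on which Cited4 was chosen, so the coefficients are descriptions. They were Nkg7, a granule membrane protein gene of cytotoxic cells (r = 0.88 in dataset A and 0.93 in dataset B), the protease inhibitor gene Slpi (0.88 and 0.85), the tight junction gene Cldn11 (0.98 and 0.84), the secreted protease gene Klk8 (0.91 and 0.83) and the interleukin-17 receptor subunit gene Il17re (0.81 and 0.90). Cldn11 was detected on 8 and Il17re on 10 of the 17 arrays, and the others on all 17. Their differences with the cluster were 0.58 to 1.39 (log2) in dataset A. There every other gene lay below Cited4, which ranked 1 by the value that chose it. In dataset B these genes differed by 0.50 to 0.87 with the cluster, less than Cited4, which ranked 2 of 9395 there. With miR-125a they differed by 0.23 to 1.05, and Klk8, at 1.05, lay above the 0.89 of Cited4. With miR-155 Klk8 differed by 0.60, Il17re by 0.33, Nkg7 by 0.12, Cldn11 by -0.03 and Slpi by -0.28, where Cited4 differed by 0.21.

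**Figure D5:**
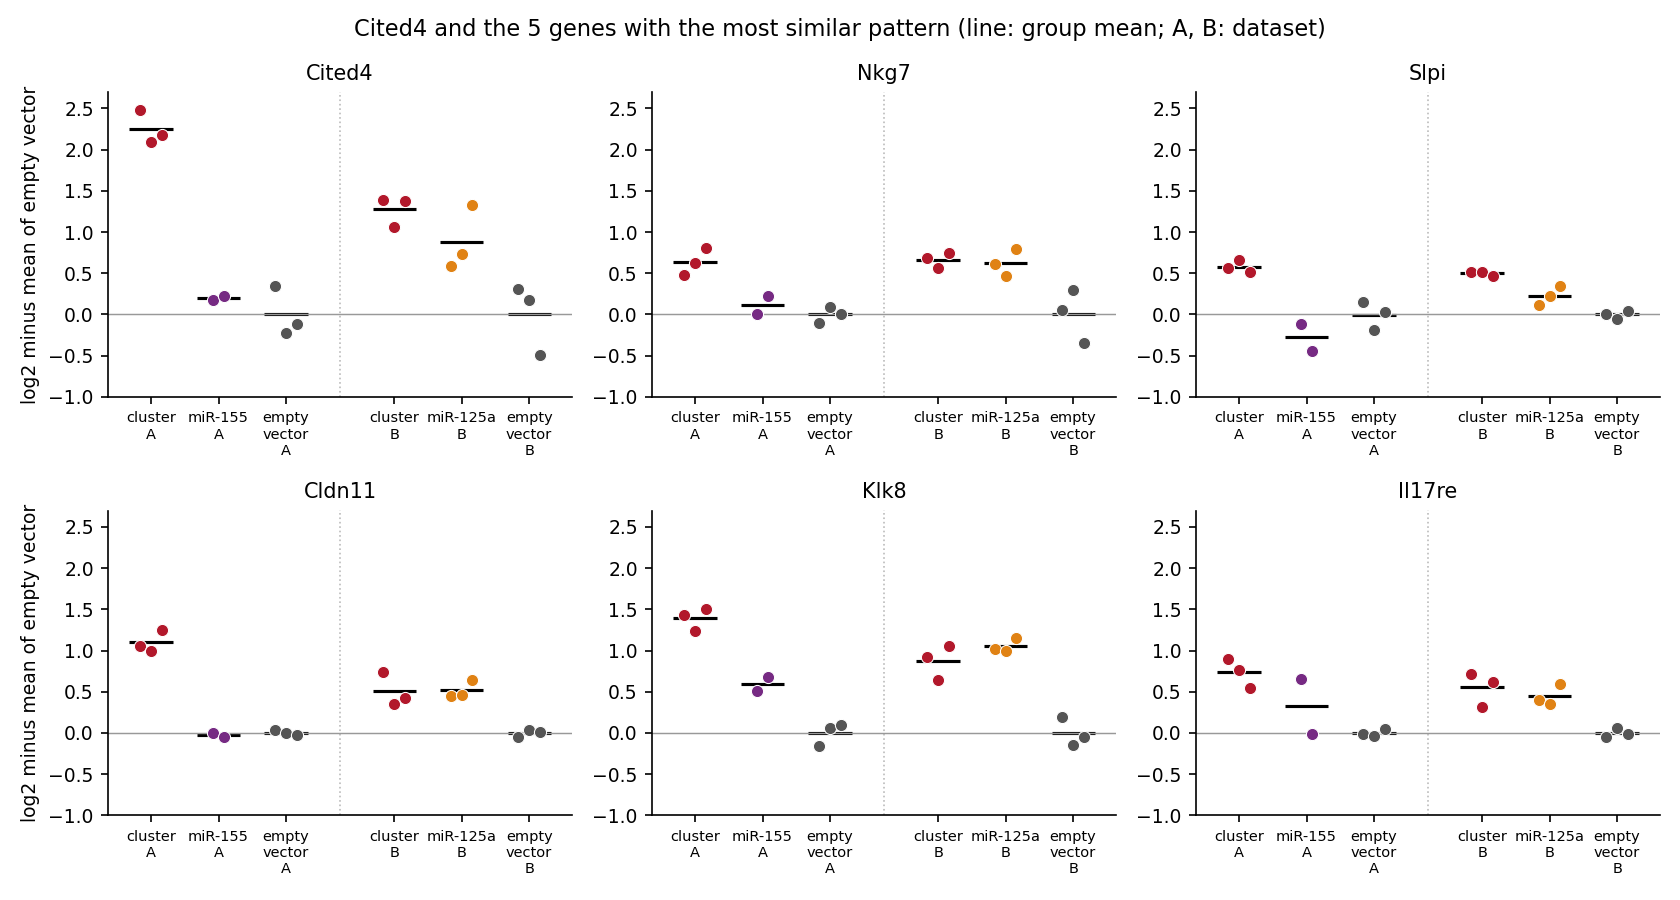
Cited4 and the 5 genes with the most similar pattern over arrays, as log2 intensity minus the empty-vector mean of the same dataset. Points are arrays and lines are group means. In each panel the cluster arrays of both datasets lie above 0. Cited4 has the highest cluster mean of dataset A at 2.25, the value on which it was chosen.

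The genes most like Cited2 followed by smaller margins. They were Spata6 (r = 0.79 in dataset A and 0.86 in dataset B), Eif4ebp1, which encodes a repressor of translation (0.76 and 0.88), the deubiquitinase gene Bap1 (0.74 and 0.76), Sertad1 (0.70 and 0.75) and Ubxn6 (0.80 and 0.68). With miR-125a all 5 were below the empty vector, by log2 differences of -0.24 to -0.52, beside -0.18 for Cited2, and with the cluster in dataset B by -0.13 to -0.28, beside -0.13. In dataset A they did not all run that way: with the cluster Spata6 (0.08), Bap1 (0.02) and Sertad1 (0.01) lay just above the empty vector and Eif4ebp1 (-0.26) and Ubxn6 (-0.20) below it, beside -0.18 for Cited2. With miR-155 Sertad1 (0.15), Bap1 (0.02) and Spata6 (0.01) were again above and Eif4ebp1 (-0.19) and Ubxn6 (-0.05) below, beside -0.21 for Cited2.

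The sequences before the start of each gene are given to show in what the pair differs upstream, 5′ to 3′ on the + strand, as the 250 bases that RefSeq places before the gene start in GRCm38.p6, chr10:17722978-17723227 for Cited2 and chr4:120666313-120666562 for Cited4. Capitals mark matches to ACGTG, a form of the core of the hypoxia response element, on either strand. The other form, GCGTG, was not searched and is not marked.
Cited2: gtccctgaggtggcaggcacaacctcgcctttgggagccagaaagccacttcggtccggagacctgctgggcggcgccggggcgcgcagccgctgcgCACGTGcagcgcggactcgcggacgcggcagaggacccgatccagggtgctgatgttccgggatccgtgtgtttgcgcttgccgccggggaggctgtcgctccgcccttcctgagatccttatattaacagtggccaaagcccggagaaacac
Cited4: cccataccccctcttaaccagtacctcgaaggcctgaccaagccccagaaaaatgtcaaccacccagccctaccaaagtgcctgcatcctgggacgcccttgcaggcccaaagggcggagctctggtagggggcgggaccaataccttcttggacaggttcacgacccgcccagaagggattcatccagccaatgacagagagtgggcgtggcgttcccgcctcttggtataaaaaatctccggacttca
The Cited2 stretch had a GC content of 66.8% and that of Cited4 58.0%, against a median of 52.4% over 32851 gene promoters of the same length. In Cited2 ACGTG matched on both strands in overlapping positions from -153 to -148, counted back from the gene start, which gives CACGTG. In Cited4 ACGTG was not found in this window, though the unmarked letters there include GCGTG. Of all promoters 16.6% held ACGTG. GCCNNNGGC, the palindrome that TFAP2 factors bind, was searched on both strands, was held by 13.7% of promoters and was found in neither window. A match describes letters only.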

How the data were processed

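For 17 samples, messenger RNA was measured on single-channel Illumina arrays (45281 probes each). The deposited intensity values are bead signals without normalization, and the submitters' processing notes name GenomeStudio with no version. The detection p-value of each probe was deposited beside them per the file headers. The deposited series matrix holds log2 values, made in a way that the sources used here do not give, with medians of 6.47 (dataset A) and 6.80 (dataset B). They kept the order of the intensities (lowest rank correlation 0.99999 over 16 arrays), were not centred per gene, and the values themselves gave their scale.

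The sample titles gave the groups. In dataset A 2 intensity columns are headed as cluster array 1, and the second was taken as a cluster array without a number, with the detection column to its right. Of 136 array pairs, 0 held identical values. P-values measure the spread between these samples. With R 4.3.3, limma 3.58.1 and data.table (version 1.17.8), background was corrected (normexp, controls inferred from detection p, offset 16) and quantiles were normalized within each dataset. A single gene symbol was annotated to 34885 probes, several to 18 and none to 10378, and 34807 gene IDs matched the RefSeq list of GRCm38.p6, with 0 symbols changed. Each gene was represented by its brightest probe, and 10266 genes of dataset A (detection p under 0.05 on 2 or more arrays) and 9395 of dataset B (3 or more) were tested. In each dataset 1 limma model (lmFit, contrasts.fit, eBayes) took all groups, with Benjamini-Hochberg adjustment over all genes, or over 19159 and 17524 probes where probes were tested singly. An adjusted p under 0.05 was called, and all adjusted p values are limma's. The fit was tested on simulated data.

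The members, gene lists, likeness rule and tests were chosen with earlier results of these data known, those of dataset B included. All probes of the Cited genes are named, and for each list at most 4 called members, or where there was none at most 2 of largest size in a comparison. Cxcr2 is named in addition, as the highest of a list whose called members fell. In dataset B, empty-vector and cluster arrays carry the same numbers in their titles, and the deviations of same-numbered arrays from their group means correlated at 0.12, 0.19 and 0.18, so the numbers were taken as pairs in an alternative with a replicate block. Other alternatives changed the background correction, scaling, detection filter, probe, prior, array weights and arrays in the fit, or used series matrix values. Figures were drawn with matplotlib 3.10.9 in Python 3.11.15. Proteins and 3' UTRs were not analysed here.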

Additional observations from a re-analysis of the deposited data

How the results depend on the processing

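Cited4 kept a positive difference with the cluster in datasets A (1.09 to 2.43, log2) and B (0.45 to 1.49), with miR-125a (0.29 to 1.25) and for cluster against miR-125a (0.16 to 0.61) under every alternative run. Background treatment moved the size: with the cluster in dataset A it was 1.18 without correction and 1.09 on series matrix values, and against miR-155 1.11 and 1.03. Scaling and prior moved the calls in dataset B. Median scaling gave 1.49 with the cluster and 1.25 with miR-125a, 1.18 and 0.77 above the medians of all genes at 0.32 and 0.48, and the trended, robust prior gave 1.27 with the cluster, now called. Under median scaling the miR-155 difference of Cited4 was -0.04, with the median of all genes at -0.31. The cause was not tested.

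Cited2 changed sign under median scaling, to 0.21 with the cluster in dataset B, 0.34 with miR-125a and -0.13 for cluster against miR-125a (median of all genes -0.16), and stood at 0.38 for cluster against miR-155 (median of all genes 0.23). The combinations of a dimmer probe with another scaling were chosen after seeing the data. With median scaling ILMN_2905866 gave 0.02 and 0.24 with the cluster and with miR-125a in dataset B and ILMN_2683980 gave 0.00019 with miR-125a. For cluster against miR-125a, a difference near 0, the sign also turned with array weights (-0.00098), without miR-125a replicate 3 (-0.02), on ILMN_2905866 (-0.03; -0.02 without background correction or on series matrix values) and with median scaling on the dimmer probes (-0.15 and -0.22). For cluster against miR-155, ILMN_2905866 gave -0.27, -0.22 without background correction and -0.21 on series matrix values. None of the tested ones passed.

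In dataset B the replicate block, fitted on the 2 groups compared, gave 1.27 for Cited4 (adjusted p = 0.251) and -0.13 for Cited2 (adjusted p = 0.734) and changed no call of either. In dataset A the deviations of same-numbered arrays of the series matrix correlated unevenly. The values were -0.19, -0.03 and 0.36 for cluster and empty vector, and 0.32 and 0.06 for miR-155 and empty vector. There the block was run only together with series matrix values and the 2 groups compared. This gave 1.09 for Cited4 with the cluster and 1.08 against miR-155, where series matrix values without a block gave 1.09 and 1.03. Cited2 with miR-155 moved more, to -0.36 ± 0.11 (log2, SE; limma adjusted p = 0.128) from -0.21 ± 0.16 without a block (adjusted p = 0.817). With the cluster Cited2 stayed at -0.17.

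Leaving out 1 array at a time gave ranges for Cited4 of 2.13 to 2.43 with the cluster in dataset A, 1.03 to 1.43 in dataset B, 0.64 to 1.04 with miR-125a, 0.09 to 0.38 with miR-155, 0.24 to 0.61 for cluster against miR-125a and 1.93 to 2.12 for cluster against miR-155. For Cited2 they were -0.34 to -0.01, -0.23 to -0.05, -0.28 to -0.10, -0.37 to -0.05, -0.02 to 0.13 and -0.06 to 0.13 in the same order, and no omission brought a call in the 4 comparisons with a test. Where 1 miR-155 array was left, it was assumed to vary like the other groups.

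Counts of called genes varied with the setting: 7 (block on series matrix values, 2 groups) to 82 in place of 67 with the cluster in dataset A, 0 to 56 (median scaling) in place of 1 in dataset B, 0 to 1766 (median scaling) in place of 0 with miR-125a, 20 (without miR-155 replicate 2) to 189 (block on series matrix values, 2 groups; 56 on series matrix values alone) in place of 108 with miR-155, 0 to 4 in place of 0 for cluster against miR-125a and 13 to 113 in place of 89 for cluster against miR-155. Cited4 lay close to background on the empty-vector arrays, which limits the precision of its folds.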
